A study of Mus musculus with 9 samples.

Results

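Leg muscle of mice given aspirin together with a peptide hydrogel was compared with leg muscle of untreated mice, gene by gene, by RNA sequencing. The comparison uses 6 of the 9 libraries of the series: the 3 labelled Asp+Pep, called hydrogel libraries here, and the 3 labelled Control, taken from the treatment labels. Each library came from 1 mouse. All mice were WT, of a strain written c57b6l, and all carried the same model, which the labels name with hindlimb, suspension and ischemia, so the controls were injured too and no uninjured muscle was analysed here. The control group was left without treatment, and the hydrogel group received the peptide hydrogel with aspirin in it. The remaining 3 libraries are from mice given aspirin without the gel. They enter the filter on low counts, the scaling, the estimate of spread, some side-by-side values and a test of hydrogel against aspirin. The labels give no dose, time, age or sex, and a hydrogel without aspirin was not analysed here, so the gel and the drug cannot be told apart in this comparison. Sample codes begin with 8 in every hydrogel library and with 9 in every control library. A handling batch marked by those codes and the treatment cannot be told apart.

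Aspirin acetylates the cyclooxygenases Ptgs1 and Ptgs2, which make the prostaglandins of inflammation and the thromboxane of platelets. Peptide hydrogels are water-rich scaffolds that can hold a drug at the site of injury. Injured muscle is first entered by neutrophils and then by macrophages. Satellite cells meanwhile divide and form new fibres, and fibroblast-like cells lay down collagen, of which a lasting excess is fibrosis.

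The libraries were muscle, and they differed within each group. Acta1, the actin of skeletal muscle fibres, stood at 18854, 22874 and 40386 CPM (counts divided by the scaled library size) in Controls 1 to 3 and at 26081, 27691 and 42413 CPM in Hydrogels 1 to 3. Total counts ran from 34298256 to 48170537 per library, and 18259 of 55335 genes passed the filter on low counts. On the first principal component of the 6 libraries, with 49.1% of the variance of 14355 genes, Control 1 lay at -60.9 and Hydrogel 3 at 73.6, while the other 4 lay from -10.2 to 3.13. Control 3 stood apart on the second component, at 52.8. The scaling factor between library size and CPM was 1.23 in Control 1 and 0.689 in Hydrogel 3, against 0.891 to 0.966 in the other 4. Many list medians moved by more than 1.5 times without Control 1 and Hydrogel 3 or without a single library, and such values are given beside the lists described in most detail. Ddx3y, a helicase on the Y chromosome, stood at 43.0 to 99.3 CPM in the 6 libraries, and Xist, the RNA of the inactive X, at no more than 0.388 CPM.

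By edgeR's quasi-likelihood test across all 18259 genes, 0 (0.0%) reached the adjusted threshold of 0.05, and the smallest adjusted p was 0.987. Fitted fold changes were above 0 for 47.1% of genes and below 0 for 52.9%. An unadjusted p under 0.05 was reached by 716 genes (3.92%), 318 higher (1.74%) and 398 lower (2.18%) in the hydrogel libraries. In the fit of all 9 libraries this share is under the 0.05 that such a threshold gives when no gene differs. With only the 6 libraries in the fit there were 1193 genes, a share above that 0.05. The 716 became 454 with library size alone as the scaling and 256 without Control 1 and Hydrogel 3. By limma-voom 0 genes were called at the adjusted threshold. DESeq2 called 18 genes of 18059, 10 higher (0.0554%) and 8 lower (0.0443%). The lower ones were Zdhhc23, Commd10, Usp49, Apold1, C1qtnf3, Gbp11, Mmp9 and Dsp, and the higher ones held Zbed6, Zfp971, Zfp397, BC005561, a pseudogene of Hmgb1 and 5 genes with predicted names. On simulated counts of this comparison DESeq2 made 50 false calls where edgeR made 1. The shares of truly altered genes found by edgeR and DESeq2 were 2.99% and 11.9% at 2-fold, 37.3% and 73.1% at 4-fold, and 54.5% and 72.7% at 8-fold. Those counts were drawn once, independently for each gene, from the means of all 9 libraries and edgeR's estimate of spread. No simulated library was set apart as Control 1 and Hydrogel 3 were, so the rates may differ in the real libraries. The 3 hydrogel libraries lay all above or all below the 3 controls for 2402 genes (13.2%), 1251 higher (6.85%) and 1151 lower (6.3%). Such genes are called genes without overlap here, and shares of a gene list are read against these shares. Among so many genes, many lie apart in 3 against 3 libraries even if none differs between groups. How many of the 2402 are of that kind was not tested. With a difference of at least 2-fold as well, there were 268 higher (1.47%) and 363 lower (1.99%). The split moved to 571 higher (3.13%) and 1496 lower (8.19%) with library size alone, a scaling that shifts the median of all genes from -0.03 to -0.25 on the log2 scale.

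The 5 named lower genes of smallest unadjusted p began with Zdhhc23, the gene of an enzyme that attaches palmitate to proteins. The endosomal sorting gene Commd10, the histone deubiquitinase Usp49, the vascular gene Apold1 and the secreted C1q-related protein gene C1qtnf3 followed. Log2 fold changes of the 5 ran from -2.14 to -1.46. The start regions of 4 of them are shown because, with Commd10, these genes had the 5 smallest unadjusted p-values among the named lower genes. They run from 250 bases before to 50 bases after the RefSeq transcript start on GRCm38.p6 (mm10), 5′ to 3′ on the gene's strand, with motif matches in capitals.
Zdhhc23: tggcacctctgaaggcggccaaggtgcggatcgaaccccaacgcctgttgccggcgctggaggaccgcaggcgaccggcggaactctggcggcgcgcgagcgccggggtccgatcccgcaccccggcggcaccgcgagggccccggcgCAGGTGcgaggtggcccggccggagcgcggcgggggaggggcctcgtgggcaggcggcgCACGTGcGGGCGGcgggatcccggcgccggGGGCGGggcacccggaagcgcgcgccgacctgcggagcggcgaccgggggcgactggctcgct
Usp49: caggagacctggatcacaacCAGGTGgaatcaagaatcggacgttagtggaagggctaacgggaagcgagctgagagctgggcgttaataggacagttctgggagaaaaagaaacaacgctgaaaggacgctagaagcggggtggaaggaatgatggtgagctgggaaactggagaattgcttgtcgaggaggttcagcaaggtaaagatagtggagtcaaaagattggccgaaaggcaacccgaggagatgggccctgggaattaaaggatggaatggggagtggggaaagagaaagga
Apold1: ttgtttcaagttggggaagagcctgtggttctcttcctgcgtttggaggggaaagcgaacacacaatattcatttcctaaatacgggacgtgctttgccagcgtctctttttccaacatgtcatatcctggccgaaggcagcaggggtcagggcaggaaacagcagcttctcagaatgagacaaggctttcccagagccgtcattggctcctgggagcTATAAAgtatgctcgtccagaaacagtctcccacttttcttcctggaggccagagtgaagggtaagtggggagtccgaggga
C1qtnf3: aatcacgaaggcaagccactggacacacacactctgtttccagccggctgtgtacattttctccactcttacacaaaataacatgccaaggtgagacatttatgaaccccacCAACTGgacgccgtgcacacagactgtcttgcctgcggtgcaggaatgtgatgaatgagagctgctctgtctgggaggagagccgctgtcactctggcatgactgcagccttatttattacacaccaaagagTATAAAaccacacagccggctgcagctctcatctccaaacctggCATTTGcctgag
The windows are chr16:43979760-43980059 on the minus strand for Zdhhc23, chr17:47630440-47630739 on the plus strand for Usp49, chr6:134981751-134982050 on the plus strand for Apold1 and chr15:10952082-10952381 on the plus strand for C1qtnf3. Searched on both strands were the E-box CANNTG, the AP-1 site TGANTCA, the CRE TGACGTCA, the GC box GGGCGG, the TATA box TATAAA and the CArG box. Zdhhc23 holds 2 E-boxes and 2 GC boxes, Usp49 1 E-box, Apold1 1 TATA box, and C1qtnf3 2 E-boxes and 1 TATA box. Of 32851 mouse windows of this length, 72.3% hold an E-box, 35.7% a GC box and 13.6% a TATA box, so E-box, GC box and TATA box matches are common in such windows. The AP-1 site (7.81% of windows), the CRE (1.79%) and the CArG box (1.63%) have no match in the 4. Of the 24 leading genes, 12 in each direction, 19 have a window.

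Zdhhc23 (ENSMUSG00000036304, chromosome 16, 43965033 to 43979791, minus strand of mm10) stood at 3.78, 5.62 and 4.21 CPM in Controls 1 to 3 and at 1.23, 1.06 and 1.10 CPM in Hydrogels 1 to 3. The 3 hydrogel values lay close together, all below the lowest control. Its log2 fold change was -2.00 ± 0.34 (SE, 95% interval -2.78 to -1.23, unadjusted p = 0.000243, adjusted p = 0.987 by edgeR's quasi-likelihood test, n = 3 and 3), and leaving out any of the 6 libraries gave -2.12 to -1.82. In the aspirin libraries it stood at 5.57, 3.16 and 3.71 CPM, above every hydrogel library. Its log2 difference between hydrogel and aspirin was -1.87 ± 0.34, with an adjusted p of 0.453 by edgeR.

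Usp49 (ENSMUSG00000090115, chromosome 17, 47630690 to 47686738, plus strand) removes ubiquitin from histone H2B. It stood at 10.9, 12.7 and 8.28 CPM in the controls and at 2.59, 1.75 and 3.63 CPM in the hydrogel libraries, so the groups did not overlap. The log2 fold change was -2.00 ± 0.36 (95% interval -2.82 to -1.17). The aspirin libraries were low as well, at 1.83, 1.15 and 1.2 CPM. Its exons overlap those of Gm20517 on its own strand over 4392 bases (0.509 CPM on average) and those of Tomm6 on the other strand over 93 bases, so its counts are uncertain to that extent.

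Apold1 (ENSMUSG00000090698, chromosome 6, 134981718 to 134986836, plus strand), an endothelial gene induced by stress, stood at 22.6, 29.0 and 17.6 CPM in the controls and at 4.28, 9.06 and 5.57 CPM in the hydrogel libraries. Its log2 fold change was -1.87 ± 0.34 (95% interval -2.65 to -1.09). Aspirin libraries stood at 5.62, 5.50 and 3.68 CPM, within the hydrogel range or just under it. C1qtnf3 (ENSMUSG00000058914, chromosome 15, 10952332 to 10980150, plus strand), a secreted protein found in cartilage and fat, stood at 26, 9.35 and 26 CPM in the controls and at 5.85, 5.34 and 2.67 CPM in the hydrogel libraries. Its log2 fold change was -2.14 ± 0.46 (95% interval -3.18 to -1.11), and all 3 aspirin libraries, from 12.5 to 20.7 CPM, lay above the hydrogel range. Commd10 (ENSMUSG00000042705) stood at 11.2, 8.01 and 9.21 against 2.88, 3.8 and 3.67 CPM, with aspirin libraries between the groups at 5.43 to 7.62 CPM.

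F2r encodes the thrombin receptor of vessels and fibroblasts. It stood at 20.3, 18.4 and 19.8 CPM in the controls and at 8.34, 8.45 and 7.24 CPM in the hydrogel libraries (log2 fold change -1.28 ± 0.33). Gbp11, a guanylate-binding family gene annotated as a polymorphic pseudogene, stood at 4.73, 3.53 and 3.37 CPM against 0.387, 0.604 and 0.0667 CPM, and reads of its near-identical relatives may be split among them. Alkal2, which encodes a ligand of the receptor ALK, stood at 1.75, 2.99 and 1.54 CPM against 0.604, 0.544 and 0.533 CPM, and it shares 529 exonic bases with Acp1 on the other strand. Cdr2 (-1.11 ± 0.29), the enzyme-related gene Accs (-1.07 ± 0.27), the beta-tubulin gene Tubb2b (-1.01 ± 0.24) and the collagen chain gene Col16a1 (-1.13 ± 0.27) completed the 12 lower genes of smallest unadjusted p. None of the 12 overlapped between groups, which their choice by p makes likely.

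On the higher side the leading genes held several zinc-finger regulators. Zbed6 (ENSMUSG00000102049, chromosome 1, 133655879 to 133660885, minus strand), a transposon-derived repressor of Igf2 in muscle, stood at 6, 14.1 and 7.56 CPM in the controls and at 25.2, 34.5 and 70.5 CPM in the hydrogel libraries (log2 fold change 2.23 ± 0.44, 95% interval 1.23 to 3.24). Hydrogel 3 was highest, and without it the lowest hydrogel library was still above the highest control. All 5007 of its exonic bases lie inside Gm38394 on the same strand, which averaged 98.9 CPM, so the counts of the 2 annotations cannot be separated fully. The aspirin libraries, at 10.6 to 13 CPM, stayed in the control range.

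Zfp397, a zinc-finger gene, stood at 20.7, 21.6 and 18.6 CPM against 31.5, 34.6 and 41.1 CPM (log2 fold change 0.82 ± 0.18), and the aspirin libraries, at 29.7 to 32.9 CPM, also lay above every control. Zfp971 stood at 1.99, 3.03 and 2.47 CPM against 5.53, 7.22 and 12.6 CPM. Sacm1l, a phosphoinositide phosphatase of the endoplasmic reticulum, stood at 14.9, 16.1 and 14.5 CPM against 27.1, 23 and 27.4 CPM (0.77 ± 0.20). Ube3a, a ubiquitin ligase, stood at 10.2, 13.3 and 11.1 CPM against 17.1, 30.8 and 22.1 CPM (1.01 ± 0.27). Zinc-finger genes form a large family of close relatives, and reads may be split among them. Exons of Sacm1l, Ube3a and Zfp142 overlap genes on the other strand over 1796 bases or more, and whether counting used strand is not given in the sources used here. The other higher genes were the copper transporter Atp7a (1.24 ± 0.29), the phosphatase Inpp4a (1.40 ± 0.34), the receptor kinase Grk3 (1.09 ± 0.27), Zfp142 (0.86 ± 0.22), the RNA polymerase III factor Bdp1 (1.49 ± 0.39), Zfp715 (0.71 ± 0.19) and Dcaf17 (1.45 ± 0.39), a substrate adaptor of a ubiquitin ligase.

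**Figure D1:**
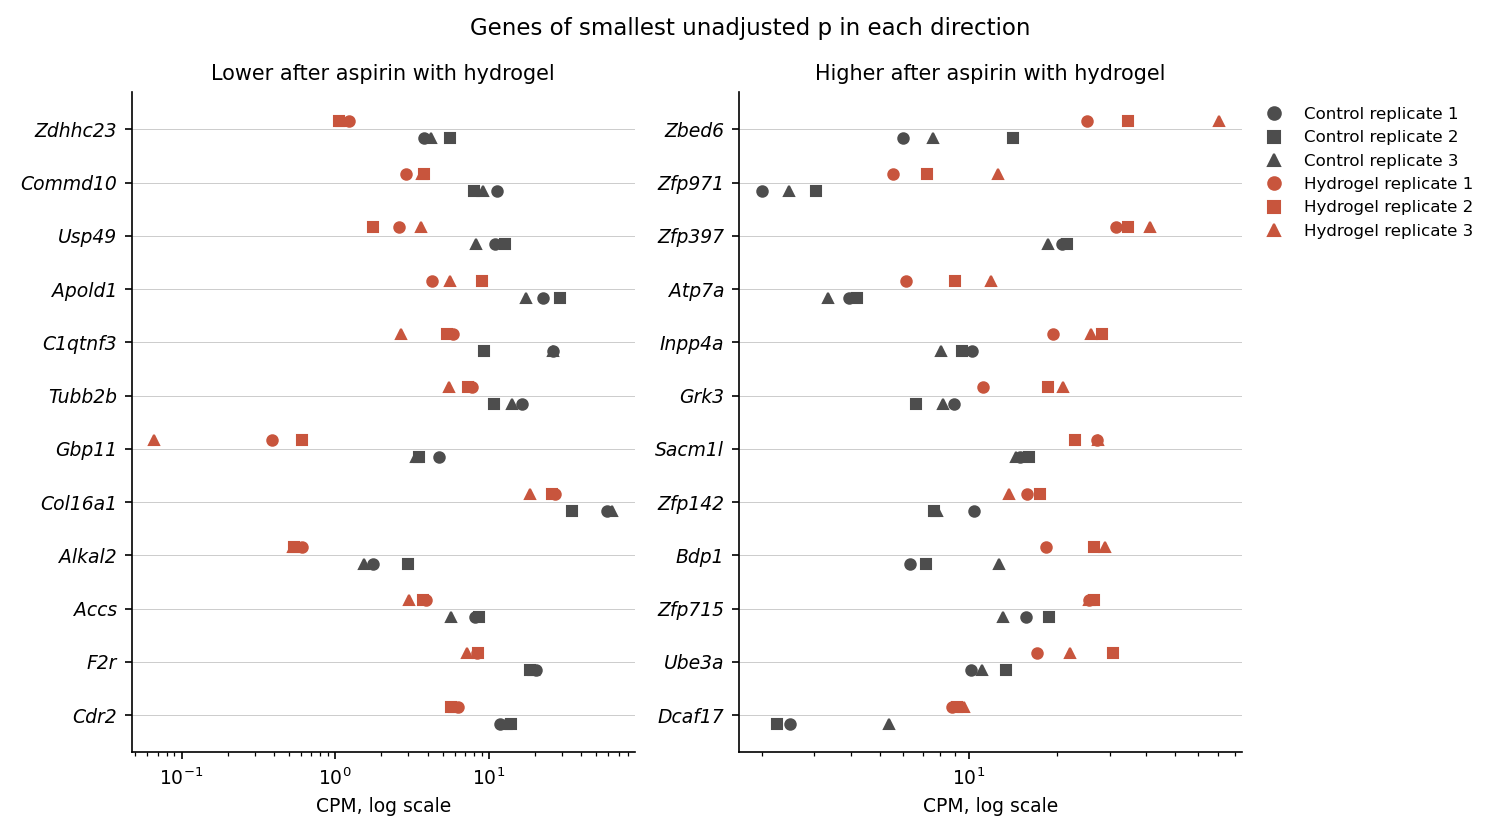
CPM (x axis, log scale) of the 12 genes of smallest unadjusted p on each side, 1 marker per library, with controls in grey and hydrogel libraries in red. The groups do not overlap for any of the 24, with Usp49 at 8.28 to 12.7 CPM in the controls and 1.75 to 3.63 CPM in the hydrogel libraries.

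The aspirin libraries shared the direction for some of these 24 genes. They lay entirely beyond the controls on the same side for 5 of the 12 lower genes (Commd10, Usp49, Apold1, Gbp11 and Alkal2) and 6 of the 12 higher genes. Both comparisons use the same controls, so these counts are side-by-side values and not independent. Hydrogel and aspirin libraries did not overlap for 8 of the 12 lower and 7 of the 12 higher genes. In the test of hydrogel against aspirin, edgeR called 0 genes at an adjusted p of 0.05 (0.0%) and 1996 (10.9%) at an unadjusted one, and the smallest adjusted p among the 24 was 0.453.

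Several of the largest fold changes sat on single libraries. Among genes averaging at least 5 CPM whose groups did not overlap, Dsp, the desmoplakin of skin and heart cell junctions, had the largest decrease in fitted value, -5.07 ± 1.53. Its values were 33.4, 0.803 and 3.31 CPM in the controls and 0.580, 0.513 and 0 CPM in the hydrogel libraries, so Control 1 carried most of it, and without any of the 6 libraries in turn the value ranged from -5.62 to -2.47. Cxcl10, the interferon-induced chemokine, stood at 2.62, 2.39 and 39.3 CPM against 1.40, 2.08 and 0.467 CPM. Its value of -3.48 became -0.94 when the library that moved it most was left out. Pcdhga2, a protocadherin, stood at 0.203, 0.714 and 3.25 CPM against 4.64, 52.3 and 5.10 CPM, and shares 2116 exonic bases with each of the other genes of its cluster, so reads cannot be assigned to it alone. Ttll7, a tubulin-modifying enzyme, stood at 6.81, 12.9 and 10.3 CPM against 16.5, 30.9 and 108 CPM.

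Genes of the extracellular matrix lay lower as a group. Of 33 collagen chain genes, all of which passed the filter, 26 lay lower and 7 higher (median log2 fold change -0.58, against -0.03 over all genes), and 10 (30.3%) did not overlap on the lower side against 6.3% of all genes, none on the higher side. At an unadjusted p under 0.05 by edgeR there were 8 of the 33 on the lower side, beside 2.18% of all genes. The summed CPM of the chains was 14090, 10940 and 8835 in Controls 1 to 3 and 6390, 8747 and 6821 in Hydrogels 1 to 3, where the lowest control and the highest hydrogel library nearly met. Leaving out 1 library gave medians from -0.72 to -0.46. With library size alone 7 of the 33 did not overlap on the lower side, beside 8.19% of all genes. The median was then -0.81, beside -0.25 over all genes. Without Control 1 and Hydrogel 3 the median was -0.40, with 10 (30.3%) of the chains not overlapping, now beside 15.3% of all genes. No single chain passed the adjusted test.

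Type VI collagen forms microfibrils in the sheath around each fibre. Col6a1 stood at 476, 411 and 450 CPM in the controls and at 278, 339 and 285 CPM in the hydrogel libraries (log2 fold change -0.57 ± 0.28). Col6a2 stood at 481, 400 and 463 against 266, 312 and 260 CPM (-0.68 ± 0.29), and Col6a3 at 380, 295 and 312 against 192, 264 and 219 CPM (-0.55 ± 0.28). The groups did not overlap for any of the 3. The later chains of the type, Col6a5 (0.23 ± 0.40) and Col6a6 (-0.28 ± 0.37), overlapped.

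The fibril-forming chains were the most abundant. Col1a2 stood at 2242, 1423 and 1417 CPM in the controls and at 836, 1276 and 967 CPM in the hydrogel libraries (-0.72 ± 0.40), without overlap. Its partner Col1a1 stood at 2372, 1577 and 1357 against 1016, 1376 and 955 CPM, and Col3a1 at 5350, 3893 and 2926 against 2139, 3407 and 2574 CPM. Both overlapped, since Control 3 lay below Hydrogel 2. Col5a2, which limits fibril width together with other type V chains, stood at 329, 303 and 233 against 166, 215 and 163 CPM. Col12a1, which sits on fibril surfaces, stood at 28.6, 9.55 and 27.8 against 7.59, 8.61 and 7.90 CPM, with Control 2 close to the hydrogel range.

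In the basement membrane, the main chain gene Col4a1 stood at 666, 761 and 433 CPM against 406, 352 and 363 CPM (-0.73 ± 0.32). Col18a1, the source of endostatin, stood at 81.7, 63.0 and 52.1 against 43.8, 50.8 and 30.8 CPM. The cartilage chain Col27a1 stood at 11, 10.4 and 8.92 against 6.11, 7.97 and 5.10 CPM (-0.66 ± 0.24). Col16a1 stood at 58.5, 34.5 and 63.3 against 27.0, 25.9 and 18.4 CPM, the smallest unadjusted p of the chains. The 7 chains that lay higher, among them Col4a3 (0.54 ± 0.56), Col4a5 (0.41 ± 0.46) and the anchoring-fibril chain Col7a1 (0.47 ± 0.32), all overlapped.

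**Figure D2:**
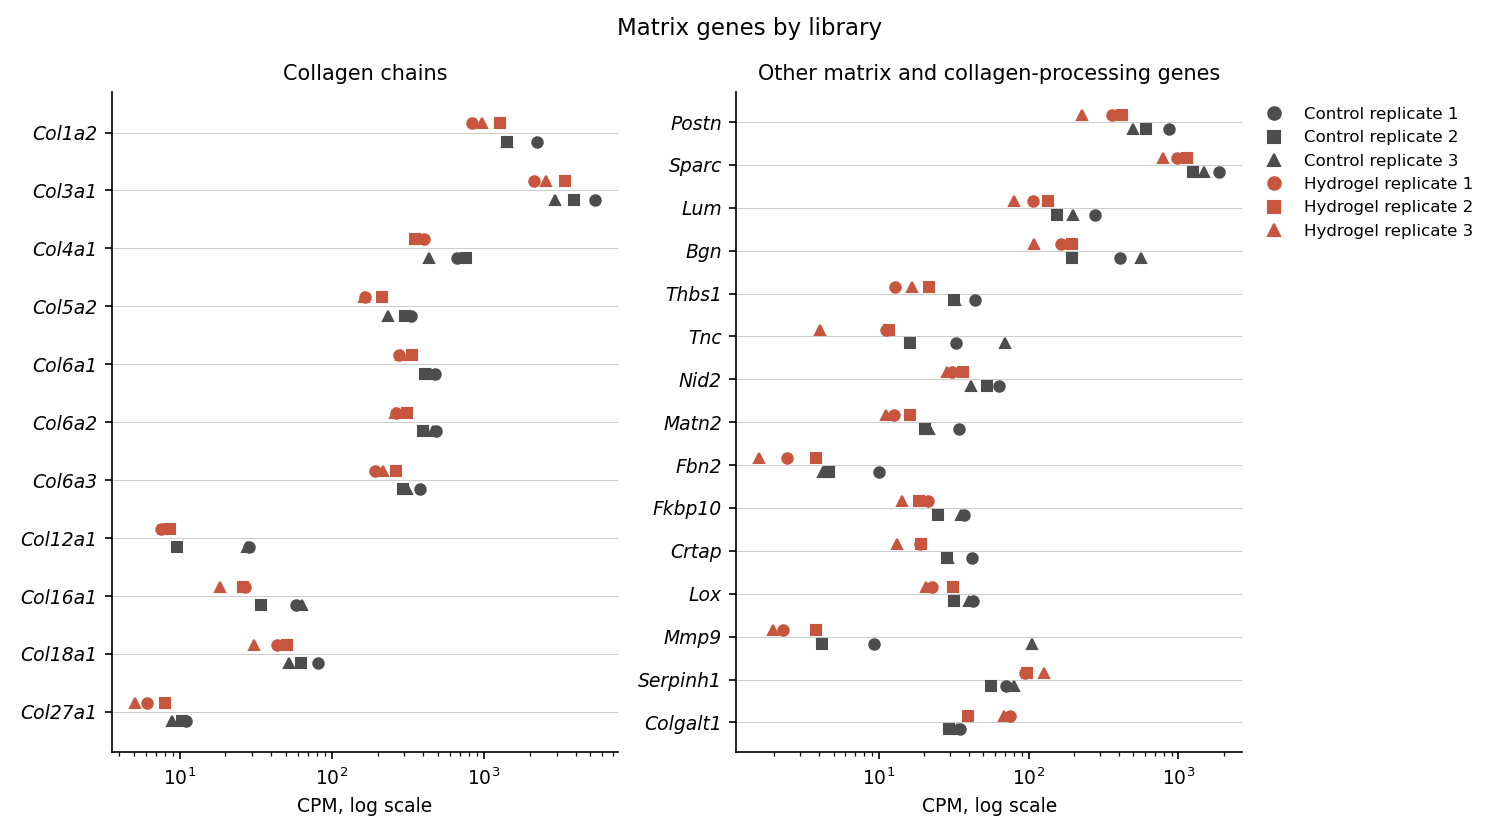
CPM (x axis, log scale) of collagen chain genes (left) and other matrix and collagen-processing genes (right), 1 marker per library, with controls in grey and hydrogel libraries in red. The genes shown were picked after their values were seen, and the left panel holds the 10 of 33 chains without overlap. Of the chains that overlapped only Col3a1 is shown, and no chain that lay higher. Dcn, Fn1, Hspg2, Mmp2 and Timp2, which overlapped, are not shown either. Hydrogel libraries lie below every control for the genes shown, except that Col3a1 and Bgn overlap and Serpinh1 and Colgalt1 lie above.

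Of 45 matrix glycoprotein and proteoglycan genes, all tested, 42 lay lower and 3 higher (median -0.58). On the lower side 14 (31.1%) did not overlap, beside 6.3% of all genes, and none on the higher side. The median ran from -0.75 to -0.42 over the left-out libraries and was -0.41 without Control 1 and Hydrogel 3. In that last setting 14 did not overlap on the lower side, now beside 15.3% of all genes. Periostin, Postn, made by activated fibroblasts, stood at 859, 603 and 494 CPM in the controls and at 358, 422 and 228 CPM in the hydrogel libraries (-0.96 ± 0.42). Tnc, tenascin C, a wound matrix protein, stood at 32.7, 16.2 and 69.4 against 11.1, 11.8 and 4.07 CPM (-2.13 ± 0.71). Its control values were wide apart. Thbs1, thrombospondin 1, stood at 43.7, 31.7 and 32.4 against 12.9, 21.6 and 16.7 CPM (-1.07 ± 0.44).

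Matn2, a matrix adaptor protein, stood at 34.4, 20.4 and 21.6 CPM against 12.7, 16.1 and 11.2 CPM (-0.93 ± 0.28), the smallest unadjusted p of this list. Elastic fibre genes were among those without overlap. The fibrillin Fbn2 stood at 10.1, 4.66 and 4.24 against 2.44, 3.8 and 1.60 CPM, the microfibril regulator Emilin1 at 24.1, 17.5 and 24.7 against 14.4, 14.5 and 11.4 CPM, and elastin, Eln, at 254, 104 and 118 against 101, 94.5 and 78.6 CPM. Sparc, a collagen-binding protein, stood at 1867, 1247 and 1488 against 982, 1140 and 783 CPM. Some abundant members overlapped, namely decorin, Dcn (-0.14 ± 0.45), fibronectin, Fn1 (-0.08 ± 0.34), and perlecan, Hspg2 (-0.24 ± 0.41).

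Enzymes and chaperones that fold and crosslink collagen were mixed. Of 25, 18 lay lower and 7 higher (median -0.24), with 5 (20%) not overlapping on the lower side and 2 (8%) on the higher. Without Hydrogel 1 the median was -0.14. The prolyl isomerase Fkbp10 stood at 37.0, 25.1 and 35.3 CPM in the controls and at 21.3, 18.6 and 14.3 CPM in the hydrogel libraries (-0.85 ± 0.22). Crtap, part of the prolyl 3-hydroxylation complex, stood at 42.2, 28.5 and 28.9 against 18.8, 19.1 and 13.3 CPM (-0.96 ± 0.31). Lysyl oxidase, Lox, stood at 42.6, 31.7 and 39.9 against 22.5, 31.5 and 20.7 CPM, where Hydrogel 2 all but reached Control 2. The 2 that lay higher were Serpinh1, the collagen chaperone HSP47, at 70.8, 56.3 and 80.1 against 94.9, 97.9 and 127 CPM (0.63 ± 0.32), and Colgalt1, a collagen galactosyltransferase, at 34.9, 29.5 and 33.4 against 75, 39.7 and 68.7 CPM (0.91 ± 0.29). With library size alone 1 of the 2 no longer stood clear of the controls.

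Matrix proteases and their inhibitors lay lower in 21 of 27 tested members (median -0.49, or -0.77 without Hydrogel 2), and 4 did not overlap on the lower side (14.8%). Mmp9, the gelatinase of neutrophils and macrophages, stood at 9.29, 4.20 and 105 CPM in the controls and at 2.30, 3.8 and 1.97 CPM in the hydrogel libraries. Control 3 was far above the other controls, and leaving out 1 library moved the log2 fold change between -4.40 and -1.34. Mmp14, a membrane-bound collagenase, stood at 162, 145 and 128 against 94.8, 121 and 76.2 CPM. The gelatinase Mmp2 (-0.15 ± 0.30) and the inhibitor Timp2 (0.02 ± 0.30) overlapped.

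Markers of collagen-rich tissues beside muscle were also highest in control libraries. Of 13 tendon markers tested out of 15, 9 lay lower (median -0.68, -0.35 without Control 3 and -0.38 without Control 1 and Hydrogel 3), and their summed CPM was 234, 89.4 and 359 in the controls and 102, 122 and 75.2 in the hydrogel libraries. The tendon-defining Scx stood at 0.936 to 1.88 CPM in the 6 libraries and overlapped. Bone and marrow markers summed to 113, 68.5 and 512 CPM against 65.4, 75.2 and 33.6 CPM, and skin markers, of which 9 of 20 passed the filter, to 348, 44.0 and 47.0 CPM against 39.6, 33.4 and 27.9 CPM. Markers of fibro-adipogenic progenitors, the fibroblast-like cells of muscle, had a median of -0.11, with sums of 2954 to 3697 CPM in the controls and 2679 to 3239 CPM in the hydrogel libraries. In whole tissue, fewer cells of a type and less RNA per cell cannot be told apart. The part of these tissues in the matrix result was not tested.

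**Figure D3:**
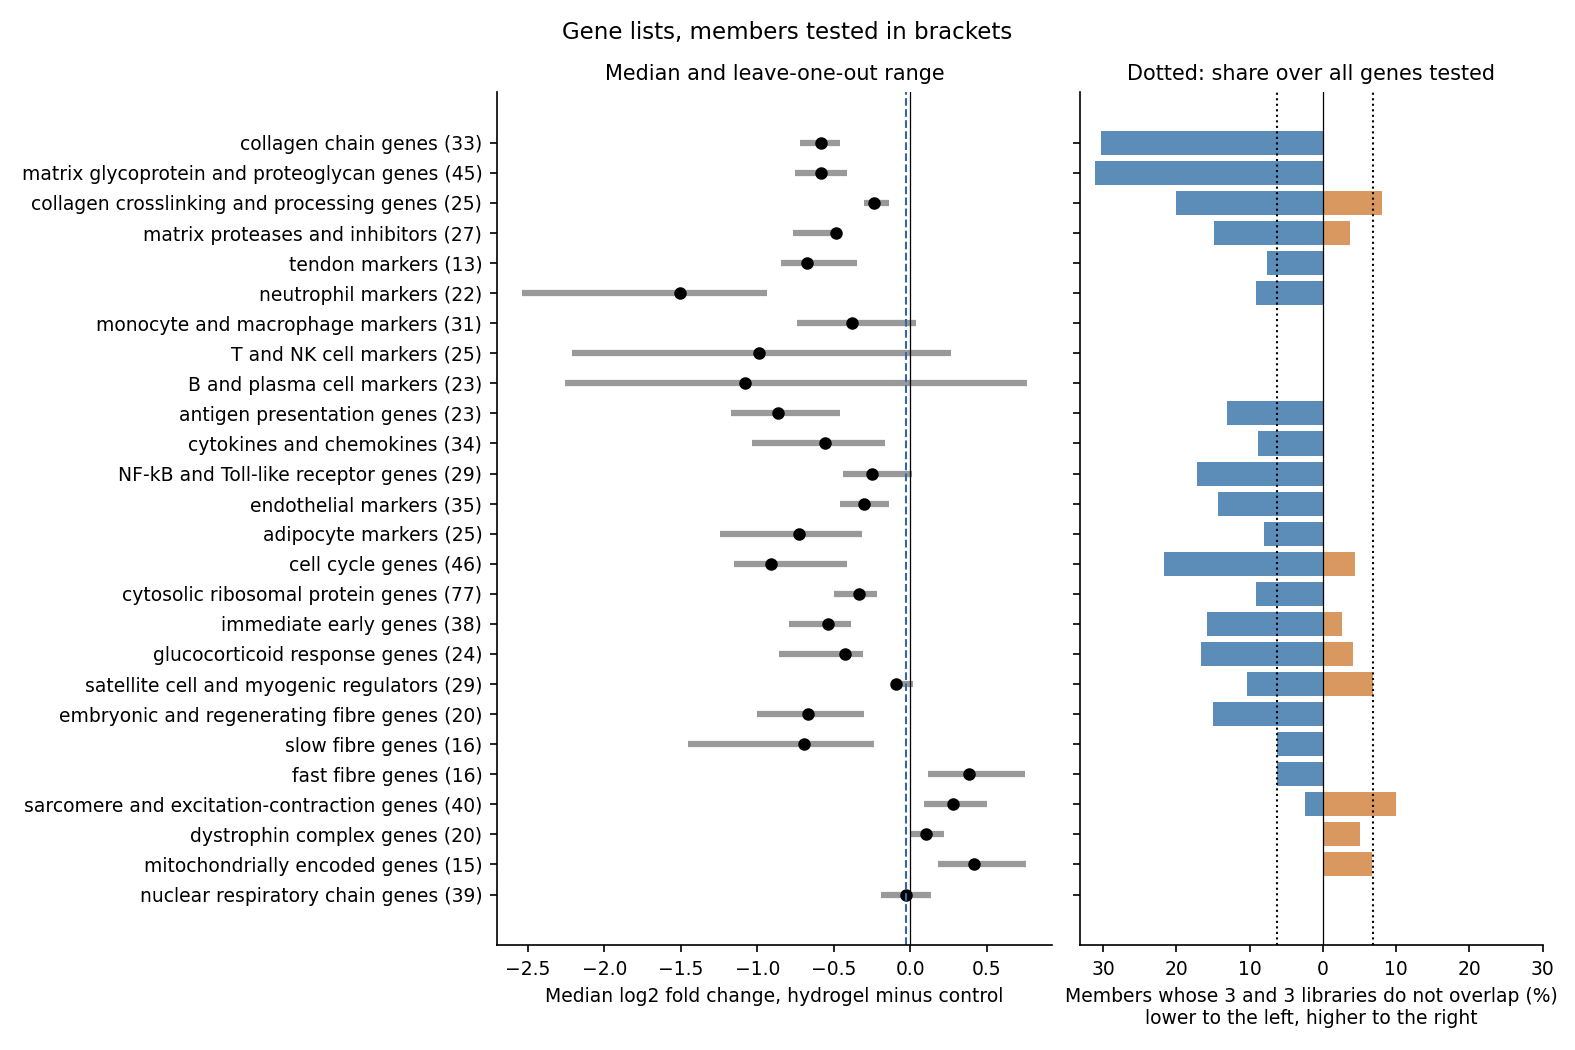
Left, median log2 fold change (points) of 26 of the 51 gene lists with the range when each library is left out (bars) and the median of all genes (dashed line). Right, the share of members whose groups do not overlap, lower to the left and higher to the right, with the shares over all genes as dotted lines. Collagen chains and matrix glycoproteins reach 30.3% and 31.1% on the lower side, while lymphocyte lists have wide bars that cross 0.

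The targets of aspirin showed no gene past the test. Ptgs1 stood at 8.81, 6.18 and 4.27 CPM in the controls and at 4.95, 4.59 and 3.50 CPM in the hydrogel libraries, and Ptgs2 at 0.258, 0.179 and 0.843 against 0.145, 1.57 and 0.700 CPM. Both overlapped, with log2 fold changes of -0.56 ± 0.32 and 0.92 ± 0.90. Of 27 tested prostaglandin and leukotriene genes, 18 lay lower and 9 higher (median -0.14, or 0.04 without Control 1 and 0.09 without Control 1 and Hydrogel 3), and 1 did not overlap. It was Ptger2, a prostaglandin E2 receptor, at 1.42, 1.65 and 1.13 against 0.483, 1.03 and 0.167 CPM. The prostaglandin D synthase gene Hpgds was among those that lay higher, at 0.87 ± 0.48.

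Inflammatory genes lay mostly lower, with values that depended on single libraries. Of 34 tested cytokines and chemokines, 27 lay lower (median -0.56, from -1.04 without Hydrogel 2 to -0.17 without Control 1), and 3 (8.82%) did not overlap on the lower side. These were Cxcl10, Cxcl11 and the macrophage growth factor Csf1, the last at 23.7, 25.4 and 26.4 CPM against 18.0, 23.6 and 16.1 CPM. Cxcl11, annotated as a polymorphic pseudogene, stood at 0.166, 0.29 and 0.756 CPM against 0.0725, 0 and 0.0667 CPM. Its hydrogel values were at or under 3 counts. The acute cytokines Il1b (0.134 to 2.42 CPM), Il6 (0 to 0.291 CPM) and Tnf (0 to 0.628 CPM) were near the floor of 3 counts (0.0554 to 0.1 CPM) in some libraries and overlapped. The list's median was -0.00 without Control 1 and Hydrogel 3, with 17 genes on each side.

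Neutrophil markers lay lower in 22 of 22 tested members (median -1.51, from -2.54 without Hydrogel 1 to -0.94 without Control 1), yet 2 did not overlap. Their summed CPM was 149, 33.8 and 195 in the controls and 50.0, 31.4 and 15.9 in the hydrogel libraries, so Control 2 lay inside the hydrogel range. That median was -0.65 without Control 1 and Hydrogel 3, with 17 lower and 5 higher. Monocyte and macrophage markers had sums of 2160, 1262 and 3779 CPM against 1876, 2709 and 1094 CPM and no member without overlap, and the median of -0.38 ran from -0.74 without Control 2 to 0.04 without Control 3, and was -0.02 without Control 1 and Hydrogel 3.

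Lymphocyte markers followed Control 1 and Hydrogel 3. T and NK cell markers summed to 415, 93.1 and 71.0 CPM in the controls and to 78.1, 213 and 12.7 CPM in the hydrogel libraries. Their median of -0.99 turned to 0.26 without Control 1 and to 0.82 without Control 1 and Hydrogel 3. B and plasma cell markers did likewise, from -1.08 to 0.76 and 1.30. No direction can be given for either group.

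All 23 antigen presentation genes lay lower (median -0.86), and 3 did not overlap (13%). The median was -0.52 without Control 1, -0.46 without Hydrogel 3 and -0.15 without both, where 13 lay lower and 10 higher. B2m, the light chain of class I molecules, stood at 541, 439 and 563 CPM against 341, 382 and 120 CPM, and H2-D1, a class I heavy chain, at 597, 473 and 666 against 392, 468 and 171 CPM. Hydrogel 3 was lowest for both, and Hydrogel 2 nearly reached Control 2. H2 genes are near copies of each other, so the split of reads among them is uncertain. The signalling adaptor Myd88 stood at 17.2, 12.3 and 18.2 CPM against 11.3, 11.3 and 8.94 CPM (-0.60 ± 0.26), and was among 5 of the 29 NF-kB and Toll-like receptor genes without overlap (17.2%). The NF-kB inhibitor Nfkbia stood at 34.9, 48.5 and 41.4 against 16.1, 27.2 and 32.2 CPM. The median of this list was -0.25 and became 0.16 without Control 1 and Hydrogel 3.

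**Figure D4:**
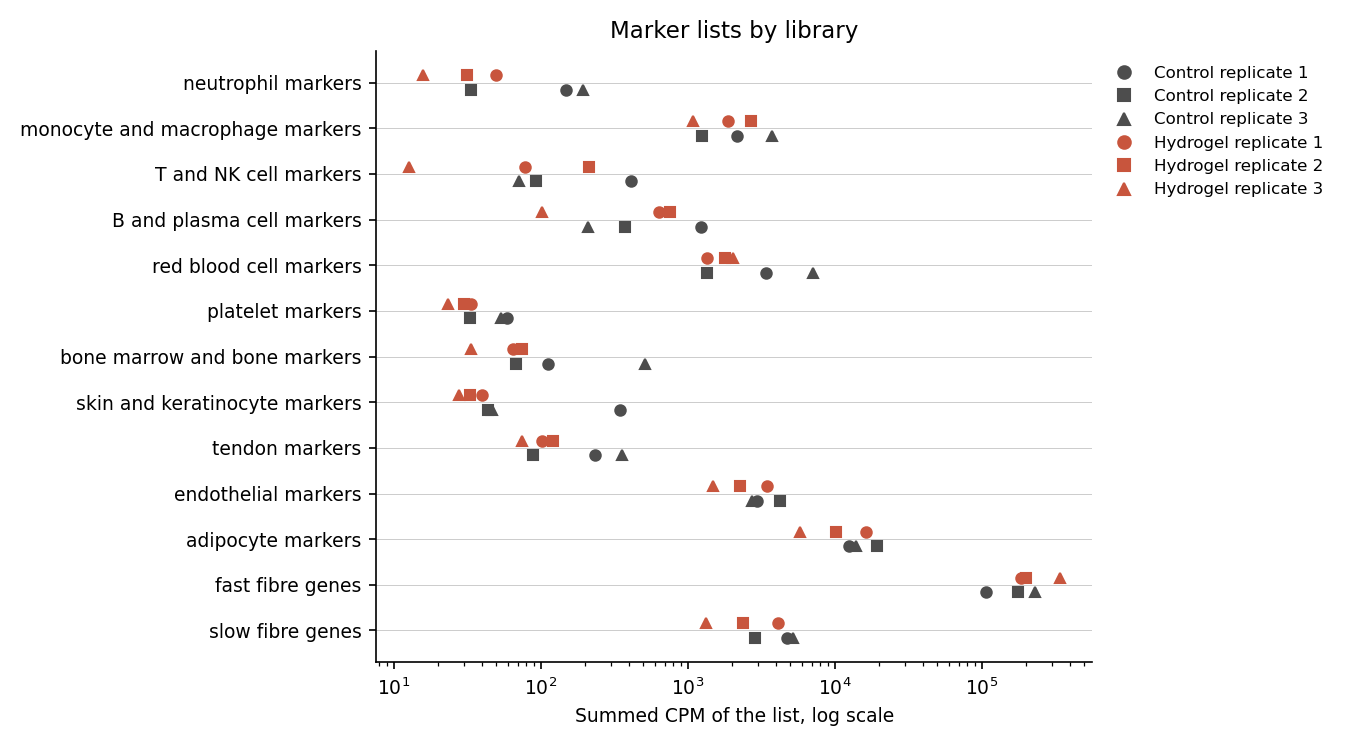
Summed CPM (x axis, log scale) of marker lists for blood, neighbouring tissue, vessel, fat and fibre types, 1 marker per library, with controls in grey and hydrogel libraries in red. Control 3 is highest for neutrophil, red cell and bone lists, Control 1 for lymphocyte and skin lists, and Hydrogel 3 is lowest for most lists but highest for fast fibre genes.

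Blood was not evenly present. Red blood cell markers summed to 3390, 1351 and 7105 CPM in the controls and to 1359, 1804 and 2051 CPM in the hydrogel libraries. Platelet markers lay lower in 12 of 13 tested members (median -1.13), and 3 (23.1%) did not overlap. The platelet integrin Itga2b stood at 10.6, 4.17 and 4.77 CPM against 4.08, 2.84 and 2.80 CPM, while Pf4, the platelet chemokine, overlapped at 16.5, 12.5 and 14.4 against 13.2, 12 and 7.57 CPM. Their part in the neutrophil and cytokine values was not tested.

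Vessel genes lay lower by a smaller margin. Of 35 endothelial markers 26 lay lower (median -0.31), and 5 (14.3%) did not overlap. Leaving out 1 library gave medians from -0.46 without Control 3 to -0.14 without Control 2, and without Control 1 and Hydrogel 3 the median was -0.12, with 20 lower and 15 higher. Over all 6 libraries those without overlap held Apold1, the adhesion gene Esam (-0.51 ± 0.22) and von Willebrand factor, Vwf (-0.43 ± 0.21). They also held the tight-junction gene Cldn5, at 22.8, 47.9 and 24.5 CPM in the controls and 18.0, 15.9 and 5.70 CPM in the hydrogel libraries. Rgcc was the last, at 15.2, 32.9 and 23.4 against 12.6, 12.3 and 13.1 CPM. The cadherin Cdh5, which marks all endothelium, stood at 163, 203 and 104 against 143, 136 and 99.0 CPM (-0.31 ± 0.36). The growth factor Vegfa overlapped (-0.12 ± 0.48), while its relative Pgf stood at 2.03, 5.94 and 2.09 against 1.04, 1.57 and 1.53 CPM. Among 25 adipocyte markers 24 lay lower (median -0.73, from -1.25 without Hydrogel 1 to -0.32 without Hydrogel 3) and 2 did not overlap, with sums of 12550, 19450 and 13900 CPM against 16300, 10250 and 5821 CPM.

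In the myogenic programme, Myod1, which commits satellite cells to the muscle lineage, stood at 14.5, 6.58 and 17.3 CPM in the controls and at 39.8, 31.6 and 27.9 CPM in the hydrogel libraries. The groups did not overlap, with a log2 fold change of 1.37 ± 0.47 (unadjusted p = 0.017, adjusted p = 0.987 by edgeR). Met, the receptor that wakes satellite cells, also lay higher, at 6.20, 9.93 and 8.31 against 11.9, 13.2 and 20 CPM (0.88 ± 0.40). Other regulators of the list overlapped or lay lower. Pax7, the marker of resting satellite cells, overlapped (0.27 ± 0.51), as did Myog, which drives differentiation (-0.58 ± 0.39). Pax3 stood at 1.09, 1.27 and 1.54 CPM against 0.411, 0.362 and 0 CPM, and the co-receptor Sdc4 at 42.3, 69.4 and 53.6 against 35.5, 33.8 and 30 CPM. Of the 29 genes of the list 13 lay higher and 16 lower, with a median of -0.09. On the higher side only Myod1 and Met did not overlap, 2 genes (6.9%), beside 6.85% of all genes. On the lower side 3 (10.3%) did not, beside 6.3% of all genes.

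Genes of newly formed fibres lay lower in 15 of 20 (median -0.67), with 3 (15%) not overlapping. Their median was -0.30 without Control 3, -0.42 without Hydrogel 3 and -0.37 without Control 1 and Hydrogel 3. The embryonic myosin Myh3 stood at 258, 35.0 and 186 CPM against 150, 45.7 and 13.5 CPM and overlapped, and the neonatal myosin Myh8 did as well (-0.94 ± 0.72). Mest, an imprinted gene of growing tissue, stood at 88.2, 41.1 and 50.0 against 30.3, 34.3 and 18.6 CPM (-1.11 ± 0.40), and shares 912 exonic bases with Copg2 on the other strand. Cdkn1a, the cell cycle inhibitor p21, stood at 75.3, 103 and 89.9 against 63.9, 49.0 and 28.9 CPM (-0.92 ± 0.34).

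Mature fibre genes followed the libraries that stood apart. Of 40 sarcomere and excitation-contraction genes 31 lay higher (median 0.28, or 0.09 without Control 1 or without Hydrogel 3), and 4 did not overlap on the higher side. Nebulin, Neb, which sets thin filament length, stood at 2882, 4864 and 4669 CPM in the controls and at 5471, 7564 and 13718 CPM in the hydrogel libraries. The sarcomere median was -0.11 without Control 1 and Hydrogel 3, with 28 of 40 lower. Myh4, the myosin of the fastest fibres, overlapped at 23353, 54378 and 62413 against 50953, 66230 and 122310 CPM, and Myh1, the IIx myosin, did not, at 13185, 6998 and 11994 against 6576, 5580 and 3648 CPM. Slow fibre genes lay lower in 15 of 16 (median -0.70, from -1.45 without Hydrogel 1 to -0.24 without Control 3). Without Control 1 and Hydrogel 3 the slow fibre median was -0.28, with 12 of 16 lower. Myh7, the slow myosin, overlapped widely, at 135, 26 and 310 against 165, 55.9 and 3.70 CPM.

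Genes that respond to glucocorticoids and fasting in muscle lay lower in 21 of 24, and 4 (16.7%) did not overlap on the lower side. Their median was -0.42, from -0.86 without Control 1 to -0.31 without Control 3, and -0.74 without Hydrogel 3. Pdk4, which closes glucose entry into mitochondria, stood at 381, 1137 and 899 CPM in the controls and at 136, 125 and 327 CPM in the hydrogel libraries (-2.04 ± 0.77). Angptl4, an inhibitor of lipoprotein lipase, stood at 57.5, 93.2 and 35.9 against 25.3, 17.3 and 9.70 CPM (-1.83 ± 0.56). Foxo1, a transcription factor that raises Pdk4 in fasting, stood at 54.1, 77.7 and 72.4 against 32.4, 38.1 and 26.8 CPM (-1.07 ± 0.38), and Cdkn1a was the fourth. The receptor gene Nr3c1 itself lay higher, at 85.8, 118 and 85.1 against 121, 124 and 140 CPM.

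With Control 1 and Hydrogel 3 left out, a choice made after seeing the data, the median of the glucocorticoid list was -1.0, with 23 of 24 lower. On the lower side 17 (70.8%) did not overlap, beside 15.3% of all genes for 2 against 2 libraries. In that setting the lower-side share was 53.6% for atrophy and autophagy genes and 46% for nuclear respiratory chain genes. For the atrophy ligases Fbxo32 and Trim63, Control 1 lay far below the other controls. Fbxo32 stood at 111, 310 and 351 CPM in the controls and at 140, 186 and 152 CPM in the hydrogel libraries, and Trim63 at 68.4, 319 and 294 against 151, 162 and 202 CPM. Over all 6 libraries neither was apart (-0.69 ± 0.87 and -0.41 ± 0.73). Fbxo40, a ligase of the insulin receptor substrate Irs1, lay the other way, at 160, 358 and 340 against 367, 402 and 698 CPM.

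Immediate early genes, which respond within minutes to hormones, stress or handling, lay lower in 31 of 38 tested (median -0.54). The median was -0.23 without Control 1 and Hydrogel 3, with 29 lower and 9 higher. On the lower side 6 (15.8%) did not overlap. The small Maf gene Maff stood at 2.99, 10.9 and 6.16 CPM against 1.57, 2.54 and 2.20 CPM (-1.67 ± 0.50), Junb, an AP-1 subunit, at 31.3, 24.9 and 30.4 against 13.4, 22.4 and 7.03 CPM, and Zfp36, which degrades cytokine RNAs, at 51.4, 68.8 and 54.3 against 20.3, 43.8 and 34.5 CPM. Fosb went the other way, at 6.85, 6.61 and 1.19 against 8.14, 27.1 and 14.2 CPM (1.75 ± 0.75).

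Among 20 clock genes 10 lay higher and 10 lower (median 0.10). On the higher side 3 (15%) did not overlap and on the lower side 1 (5%), beside 6.85% and 6.3% of all genes. Only these genes are given with values here. Without Control 1 and Hydrogel 3 the median was -0.28. Then 8 (40%) did not overlap on the lower side and 4 on the higher, beside 15.3% and 16.7% of all genes. Nr1d1, the repressor REV-ERBα, stood at 90.2, 261 and 63.8 CPM in the controls and at 53.5, 42.5 and 48.1 CPM in the hydrogel libraries. The activator Clock stood at 12.1, 29.3 and 12.5 against 30.3, 31.8 and 34.7 CPM (0.85 ± 0.34), and the repressors Cry1 at 8.77, 6.03 and 15 against 15.8, 15.3 and 23.8 CPM and Per3 at 28.4, 44.4 and 43.6 against 64.8, 55.1 and 48.7 CPM. The 3 hydrogel values of Nr1d1 and of Clock were close together, while Control 2 was far from the other controls in both. Time of day at tissue collection is not given, and its part in these values and in those of the immediate early and glucocorticoid genes was not tested.

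In growth signalling, Cish, the inhibitor that growth hormone and STAT5 induce, stood at 26.9, 12.8 and 18.4 CPM in the controls and at 3.55, 7.79 and 11 CPM in the hydrogel libraries (-1.38 ± 0.43). Its relative Socs3 stood at 13.2, 11.6 and 19.9 against 8.99, 11.5 and 3.03 CPM, with Hydrogel 2 at the edge of the control range. Irs2 stood at 32, 67.3 and 24.9 against 16.1, 24.3 and 22.7 CPM, while Irs1 lay higher, at 92.3, 90.5 and 90.3 against 117, 105 and 156 CPM. Igfbp5, an IGF-binding protein abundant in muscle, stood at 860, 1264 and 921 against 1769, 1307 and 1759 CPM, and Igfbp7 at 160, 113 and 135 against 98.1, 89.4 and 61.3 CPM. Of the 25 genes in this list 4 (16%) did not overlap on the lower side and 4 (16%) on the higher, beside 6.3% and 6.85% of all genes. With library size alone 2 did not overlap on the lower side and 1 on the higher, beside 8.19% and 3.13% of all genes. Without Control 1 and Hydrogel 3 there were 5 and 6, beside 15.3% and 16.7% of all genes.

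Proliferation genes lay lower in 42 of 46 (median -0.91, or -0.41 without Control 1 and -0.62 without Hydrogel 3), with 10 (21.7%) not overlapping on the lower side and 2 on the higher. None reached an unadjusted p of 0.05 by edgeR. Control 1 was high and Hydrogel 3 low for Mki67, a marker of dividing cells, at 41.4, 16.9 and 14.9 CPM against 14.6, 16.2 and 2.70 CPM. Tk1, a thymidine kinase of DNA synthesis, stood at 8.40, 6.09 and 6.22 against 6.09, 2.87 and 2.37 CPM. The median was -0.07 without Control 1 and Hydrogel 3, with 28 lower and 18 higher. Ube2c, a ubiquitin-conjugating enzyme of mitosis, lay higher, but shares 592 exonic bases on the other strand with Tnnc2, a fibre gene at 8063 CPM.

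Ribosomal protein genes of the cytosol lay lower in 77 of 77 (median -0.34, or -0.22 without Control 1), although 7 (9.09%) did not overlap. The 15 mitochondrially encoded genes lay higher in 15 of 15 (median 0.41, from 0.18 without Hydrogel 3 to 0.76 without Control 2), and 1, the rRNA mt-Rnr2, did not overlap, at 967, 1136 and 1052 CPM against 1218, 1181 and 4534 CPM, where Hydrogel 3 carried most of the difference. Nuclear respiratory chain genes had a median of -0.03 with 17 higher and 22 lower. Without Control 1 and Hydrogel 3, 36 of these 39 lay lower (median -0.26), and ribosomal protein genes had a median of -0.13 and mitochondrial ones of 0.05. Shares of mitochondrial reads were 10.2%, 14.7% and 8.98% in the controls and 14.1%, 11.4% and 11.9% in the hydrogel libraries.

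Vessel-wall and nerve lists not yet described lay lower without a gene past the adjusted test. Of 8 lymphatic endothelial markers 7 lay lower (median -0.64, or -1.11 without Hydrogel 2) and 3 (37.5%) did not overlap, among them the hyaluronan receptor Lyve1, at 8.73, 7.99 and 13.5 CPM against 2.68, 7.58 and 6.43 CPM. Smooth muscle and pericyte markers lay lower in 17 of 19 tested (median -0.36, -0.21 without Control 1 and -0.18 without Control 1 and Hydrogel 3), with 3 (15.8%) without overlap. Schwann cell and nerve markers lay lower in 14 of 17 (median -0.41), with none apart, and their median was 0.09 without Control 1 and 0.37 without Control 1 and Hydrogel 3.

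Several lists had medians close to that of all genes over the 6 libraries. Interferon response genes had 20 of 35 lower (median -0.08) and none without overlap. Leaving out Control 1 and Hydrogel 3 turned that median to 0.25, with 21 higher and 17 of 35 not overlapping on the higher side, beside 16.7% of all genes. Heat shock and unfolded protein response genes had 17 of 35 lower (median 0.03) and none without overlap. Complement genes had a median of -0.18, resident-type macrophage markers -0.06, mast cell markers 0.04, TGF-beta, BMP and activin genes -0.09, and NRF2 and haem response genes -0.05. Of the 11 mast cell markers 2 (18.2%) did not overlap on the lower side. Fatty acid uptake and oxidation genes had a median of -0.09, glycolysis and hypoxia genes 0.14 and dystrophin complex genes 0.10. With Control 1 and Hydrogel 3 left out, these 3 medians were -0.30, -0.21 and -0.06, so the last 2 changed sign. For glycolysis and hypoxia genes 15 of 35 (42.9%) then did not overlap on the lower side, beside 15.3% of all genes. Fatty acid genes then had 14 of 36 (38.9%) and NRF2 and haem genes 9 of 29 (31%) on that side. On the higher side glycolysis and hypoxia genes had 2, fatty acid genes 1, and NRF2 and haem genes 2.

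Gene length and base composition moved weakly with the fold change. With genes ranked by exonic length and cut into 5 groups of 3648, the median log2 fold change went from -0.09 in the shortest to 0.07 in the longest, and the share of genes higher in the hydrogel libraries from 42.5% to 57%. By GC content the median went from 0.07 in the lowest of 5 groups to -0.08 in the highest. Spearman's rho across 18240 genes, which are not independent replicates, was 0.103 with length and -0.115 with GC. Libraries of a group did not share 1 slope. From the shortest to the longest genes, Control 3 went from 0.09 to -0.15 relative to the mean of the 6 libraries. Hydrogel 2 went from -0.07 to 0.10, Hydrogel 3 from -0.09 to 0.06 and Hydrogel 1 from 0.05 to -0.03. The part of length in the results for single genes was not tested. Exons of Colgalt1, Cdkn1a, Foxo1, Nr1d1, Irs1, Myh1, Cish, Eln, Myd88 and Cxcl11 overlap annotated genes on the other strand. The same holds for other genes named or drawn here. Among them, Cxcl10 shares 133 bases with Art3 (68.7 CPM on average), Junb 173 with Prdx2 (92 CPM) and Nid2 437 with Rtraf (99.7 CPM). Counts of all genes with such overlaps are uncertain to that extent.

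**Figure D5:**
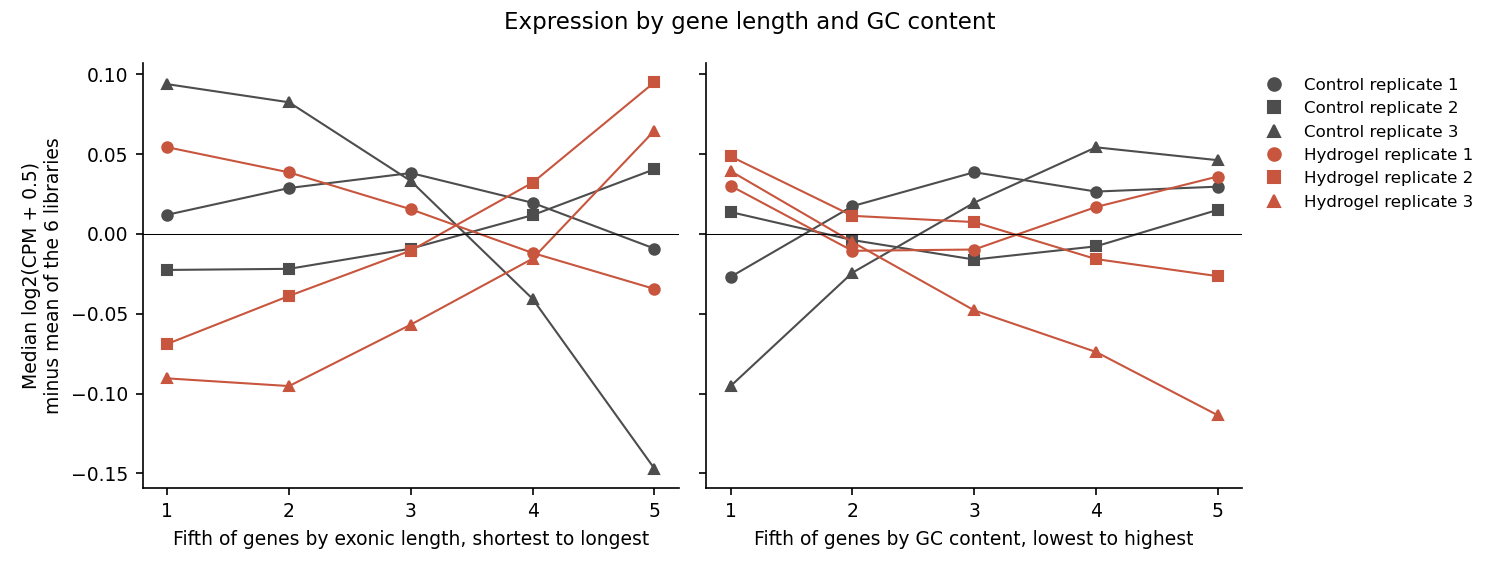
Median log2(CPM + 0.5) of each library minus the mean of the 6 (y axis) in 5 groups of genes by exonic length (left) and GC content (right), with controls in grey and hydrogel libraries in red. Control 3 reaches -0.15 among the longest genes and Hydrogel 2 reaches 0.10, while Hydrogel 1 goes from 0.05 to -0.03.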

How the data were processed

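Libraries from leg muscle RNA of 9 mice were made with a kit the labels' protocols call SMARTER. The authors deposited unnormalised counts per Ensembl gene and a table of FPKM for the same genes and samples; both describe the same reads, since 99.3% of count to FPKM ratios lay within 1% of a constant per gene (10432 genes). The FPKM were deposited by the authors and used only for that check. Per the submitters' processing notes, mm10 was the build. For the aligner, counter, annotation and strand, the tool or setting is not given in the sources used here. Of 55335 genes, 3225 have no name in the deposited table. Coordinates and overlaps are from GENCODE vM21 (55154 IDs matched) and promoters from RefSeq on GRCm38.p6.

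The test was edgeR's quasi-likelihood test (edgeR 4.0.16 in R 4.3.3, robust, TMM scaling, filterByExpr with a minimum count of 10 and total of 15) on the counts of all 9 libraries with group as the term, which share 1 estimate of spread (biological coefficient of variation 0.503). P-values were adjusted by Benjamini-Hochberg over 18259 genes, and the threshold was 0.05. CPM are counts over TMM-scaled library size, SE were derived from that test's F statistic, with 95% intervals. DESeq2 1.42.0, limma-voom (limma 3.58.1), other scalings and filters, left-out libraries and a replicate block were alternatives. The test was tested on simulated data. All pairs of libraries differed beyond sampling noise (smallest chi-square per degree of freedom 77.8). The mice are labelled as repeats, so p-values measure the spread among these samples.

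The 51 gene lists, 24 anchor genes and the rule for names were chosen with earlier results of these data known. Named are the 12 genes of smallest unadjusted p per direction averaging at least 1 CPM, the 5 largest changes without overlap at 5 CPM or more, up to 4 members per list by unadjusted p, and the anchors, leaving out predicted and pseudogene-style names. Other list members given with values were chosen after their values were seen. Counting floors are 3 counts per library and cover counting error only.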

Additional observations from a re-analysis of the deposited data

How the results depend on the processing

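No gene passed the adjusted threshold with DESeq2 size factors, library size alone, no filter, a mean of at least 1 CPM, only the 6 libraries, limma-voom, a non-robust fit, a replicate block or with any library left out, whereas DESeq2 called 18. The 716 genes at an unadjusted p under 0.05 became 454 with library size alone, 1193 with only the 6 libraries and 256 without Control 1 and Hydrogel 3, an alternative chosen after seeing the data. Leaving out 1 library gave 301 (without Hydrogel 3) to 777, with 423 without Control 1, and 870 came from the replicate block. Same-numbered libraries did not deviate together (correlations 0.161, -0.243 and 0.294), and the labels name no shared litter or day. Genes without overlap numbered 3266 to 4943 with 1 library left out and 5843 without those 2, counts that grow because fewer libraries are compared. Of 5417 alternative values of the 362 genes considered, 5210 lay within error, and 100 genes changed sign under some setting. Of 765 alternative medians of the 51 lists, 732 lay within error, and 24 lists changed sign under some setting. With 3 mice a group, the spread among them limits what can be called; at these depths a gene with no count lies below 0.0554 to 0.1 CPM. Controls 1 and 2 correlated best with a hydrogel library of another number, Control 3 with its own.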

Other observations

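Genes named Zfp with a number, most of which encode zinc-finger transcription factors, were looked at after Zfp971, Zfp397, Zfp142 and Zfp715 appeared among the leading genes, so the choice rests on the values. Of 336 tested, 237 lay higher in the hydrogel libraries, with a median log2 fold change of 0.16. The groups did not overlap for 60 on the higher side (17.9%, against 6.85% of all genes) and for 14 on the lower side. With library size alone 19 did not overlap on the higher side (5.65%, against 3.13%) and the median was -0.07. Without Control 1 and Hydrogel 3 there were 110 (32.7%, against 16.7%). These genes have a median exonic length of 4520 bases, against 3747 over all genes, and a median GC content of 44.4%, against 49.6%, and the fold change moved with both properties over all genes. The part of length and GC content was not tested. The aspirin libraries, against the same controls, gave a median of 0.25.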
